A study of Sus scrofa with 6 samples.

Results

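SNRPN and 9 further imprinted genes (UBE3A, TFPI2, GRB10, PHLDA2, IGF2, IGF2R, PLAGL1, NAP1L4 and NAP1L5) were followed across clones of pig keratinocytes from the conjunctiva and the cornea. SNRPN was chosen by its difference between the tissues on these same arrays, and the other genes were chosen with their values known, so each contrast between the tissues for these 10 genes is a description without a test. All 10 had at least 1 probe set that the array's annotation gives to that gene alone, which made 26 of 23999 probe sets and 10 of 6765 named genes. For a gene with several probe sets the brightest one, by its mean over all arrays, stands for the gene, and the others are given beside it.

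The study set 3 clones of conjunctival keratinocytes against 3 clones of keratinocytes from the central cornea of domestic pigs (Sus scrofa), with 1 Affymetrix porcine array for each clone. Each clone grew from 1 isolated cell on irradiated mouse 3T3-J2 cells, a fibroblast feeder layer, and no clone is labelled as treated or genetically altered. The labels mention 2 pigs, AP1 and AP6, without tying clones to them. The project field of the run records reads as an irradiation time course, which no sample label mentions, and the groups here follow the sample labels.

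Imprinted genes are transcribed mainly from the copy inherited from 1 parent, under control of DNA methylation set in the germ line. Much of what is known of them comes from mouse and human work, where several act on fetal and placental growth, paternally expressed genes tending to promote it and maternally expressed genes to restrain it. Imprinting of a gene can depend on the tissue: UBE3A, for instance, is imprinted in neurons and expressed from both copies in most other cells. These arrays read the total transcript of a gene and not its parental copies.

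Values are log2 RMA values, on which 1 unit is a 2-fold difference, and the array medians lay between 4.40 and 4.48. The difference between actin 3′ and 5′ control signals, a sign of RNA quality, ran from 0.55 to 1.11 in conjunctival and from 0.46 to 1.07 in corneal clones. The same difference for GAPDH was 0.23, 0.42 and 0.36 in conjunctival clones, against -0.13, 0.25 and 0.29 in corneal clones, and it was lowest in cornea 1, the clone with the lowest SNRPN; its part in the results was not tested. Of 19 listed keratinocyte markers 7 were measured, and no verdict on cell identity is drawn from them. Among them the junction protein genes PERP, DSP and CDH1 and the stratifin gene SFN were above 10 in all 6 clones, and EPCAM ran from 8.83 to 9.28 in conjunctival and from 8.22 to 9.61 in corneal clones. The hemidesmosome gene COL17A1 ran from 6.13 to 7.24 in conjunctiva and from 6.91 to 9.62 in cornea, and the integrin gene ITGA6 was below the array median in every clone, at 3.39 to 3.90. KRT5, KRT14 and TP63 were not analysed here. RNA of a whole clone was measured, so fewer cells that express a gene and less RNA per cell cannot be told apart.

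SNRPN was higher in every conjunctival clone than in any corneal clone. It encodes SmN, a core protein of the small nuclear ribonucleoproteins that splice pre-mRNA, and in human and mouse it is expressed from the paternal copy and lies at the imprinting centre of the Prader-Willi and Angelman region. Conjunctival clones 1, 2 and 3 had SNRPN at 7.37, 7.62 and 7.72, against 4.34, 5.04 and 5.63 in corneal clones 1, 2 and 3. The conjunctival clones lay within 0.35 of each other and the corneal clones were spread over 1.28, with cornea 1 just below its array's median and the other clones above theirs. The means were 7.57 ± 0.18 in conjunctiva and 5.002 ± 0.64 in cornea (SD, n = 3 each), a difference of 2.57 (SE 0.31), or 5.93-fold.

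The other SNRPN probe set followed the same order of tissues with a smaller span. It was at 6.49, 6.44 and 6.66 in conjunctival clones 1, 2 and 3, against 4.96, 5.11 and 5.47 in the corneal clones. The difference was 1.35 (SE 0.16), or 2.55-fold, and the groups again did not overlap. Over the 6 arrays the pair of probe sets correlated at r = 0.992, as a description of signals that share the same RNA.

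Between clones of the same number, SNRPN differed by 3.02, 2.59 and 2.09 for numbers 1, 2 and 3. The arrays ran on 2 fluidics stations, each of which held both tissues. The fluidics modules did not mix them: conjunctival clones 1, 2 and 3 ran on modules 2, 2 and 1, and corneal clones on modules 3, 3 and 4. Module and tissue therefore cannot be told apart. The SNRPN difference was 3.33 on station 1, which ran conjunctiva 2 and 3 with cornea 1. It was 2.04 on station 2, which ran conjunctiva 1 with cornea 2 and 3. Over all 10 genes, SNRPN had the widest range over the clones, 3.37, and 0.843% of all named genes had a range as wide or wider. That range includes the tissue difference for which SNRPN was chosen, so nothing is read from this share.

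**Figure D1:**
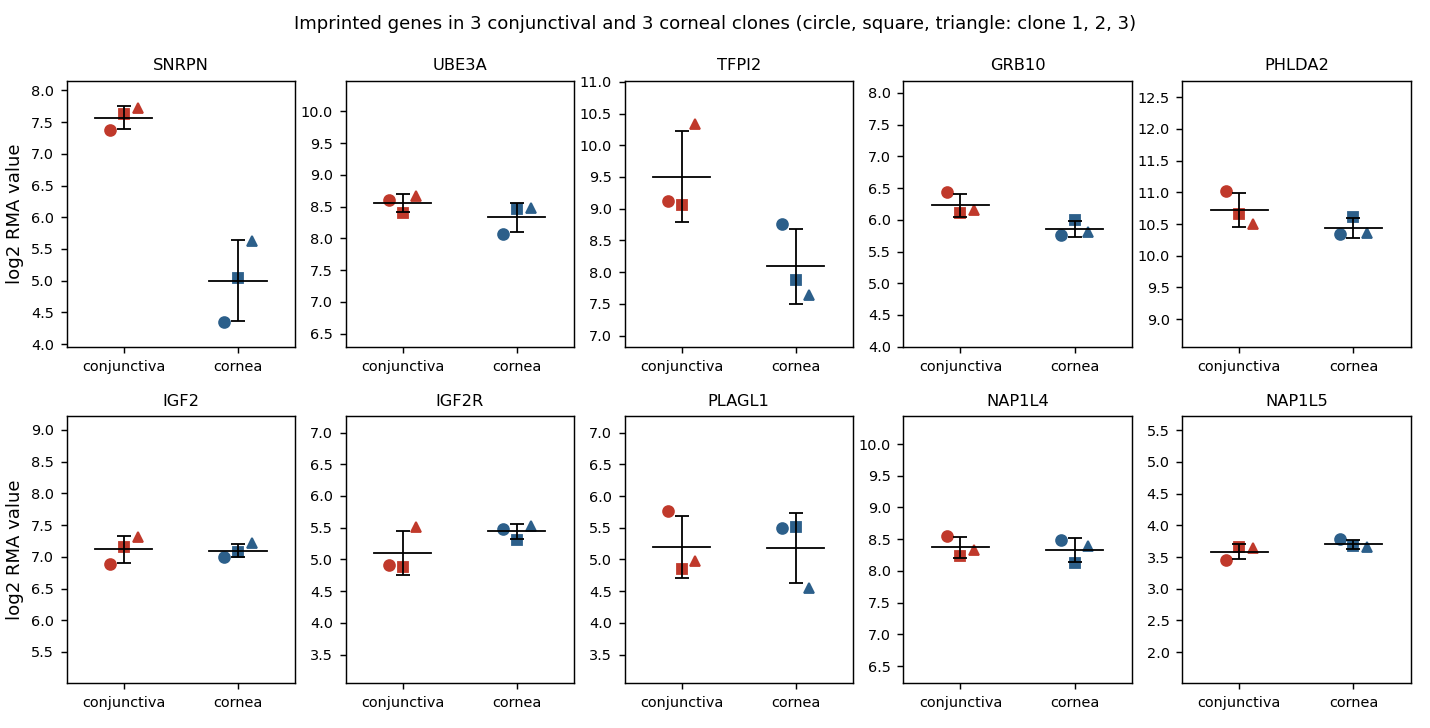
Log2 RMA values of the 10 imprinted genes in each clone, conjunctiva left and cornea right, with the group mean and ± 1 SD (n = 3 each); every panel spans the same number of log2 units. SNRPN and TFPI2 stand apart by more than 1 unit, at 7.57 and 9.51 in conjunctiva against 5.002 and 8.09 in cornea, and the other genes differ by less than 0.5.

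UBE3A encodes the ubiquitin ligase E6-AP, whose loss from the maternal copy in neurons causes Angelman syndrome in humans. It was at 8.61, 8.40 and 8.66 in conjunctival clones, against 8.06, 8.46 and 8.47 in corneal clones 1, 2 and 3. The groups overlapped, since conjunctiva 2 lay below cornea 2 and cornea 3. The means of UBE3A differed by 0.22 (SE 0.15), or 1.17-fold, and by 0.09 without cornea 1. Within stations 1 and 2 the UBE3A difference was 0.47 and 0.14.

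Of 14 genes listed from the human region that holds SNRPN and UBE3A, 3 had a probe set of their own. NDN, the paternally expressed gene of necdin, a growth suppressor of neurons, was at 4.46, 5.80 and 5.05 in conjunctival clones, against 4.43, 3.55 and 6.15 in corneal clones. It ran over 2.60 units across the clones, with its lowest and its highest value both in cornea, and the tissue means differed by 0.40 (SE 0.67). ATP10A, a phospholipid flippase gene, ran from 3.59 to 3.92 in conjunctiva and from 3.48 to 3.68 in cornea. Each conjunctival clone had more ATP10A than the corneal clone of its number. OCA2, a melanosome protein gene, ran from 3.37 to 3.43 in conjunctiva and from 3.26 to 3.81 in cornea. Both were below the array median in all clones, and for all 3 of these genes the groups overlapped.

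**Figure D2:**
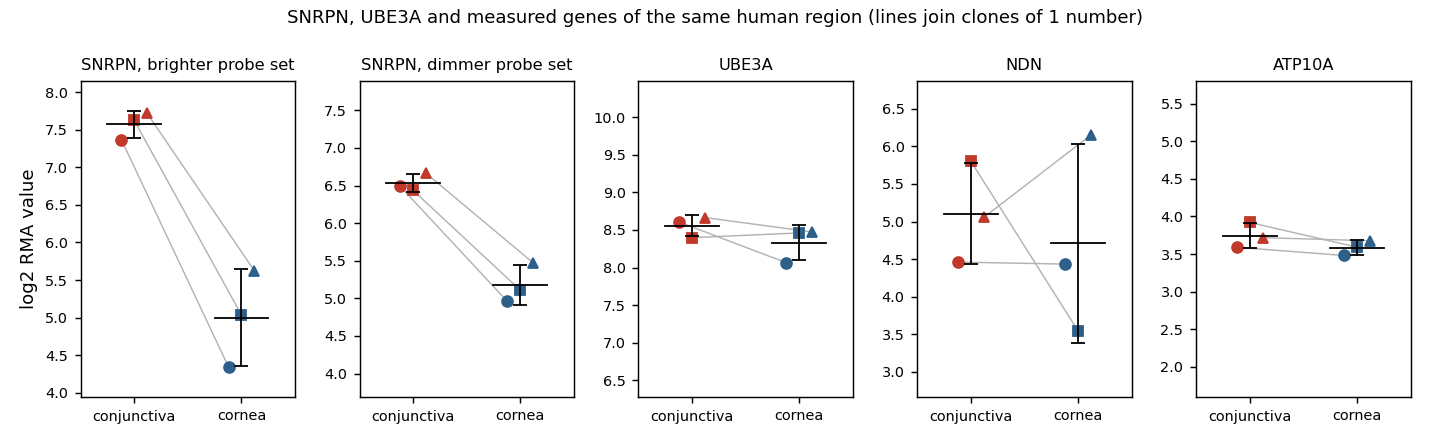
Log2 RMA values of both SNRPN probe sets, UBE3A, NDN and ATP10A in each clone, conjunctiva left and cornea right, with mean and ± 1 SD (n = 3); grey lines join clones of the same number. All 3 lines slope down to the right for both SNRPN probe sets and, over a smaller span, for ATP10A. The groups overlap for UBE3A, NDN and ATP10A.

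Among the genes linked to growth and the placenta, TFPI2 was the furthest apart. It encodes a secreted Kunitz-type inhibitor of serine proteases that binds to extracellular matrix, and its imprinting is known from placenta. TFPI2 stood at 9.13, 9.06 and 10.33 in conjunctival clones 1, 2 and 3, against 8.77, 7.87 and 7.64 in corneal clones. The groups did not overlap, but cornea 1 came within 0.30 of conjunctiva 2, and conjunctiva 3 stood well above the rest. The means were 9.51 ± 0.71 and 8.09 ± 0.60 (SD, n = 3 each), a difference of 1.42 (SE 0.42), or 2.67-fold, which was 1.01 without conjunctiva 3. Same-numbered clones differed by 0.36, 1.20 and 2.69, and the difference was 0.93 within station 1 and 1.38 within station 2.

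GRB10 encodes an adaptor that binds the insulin and IGF1 receptors and damps their signal. Its brighter probe set was at 6.44, 6.10 and 6.15 in conjunctival clones, against 5.77, 6.00 and 5.81 in corneal clones. The groups did not overlap, with conjunctiva 2 and cornea 2 only 0.10 apart, and the difference was 0.37 (SE 0.13), or 1.29-fold. The dimmer GRB10 probe set overlapped between the tissues and differed by 0.13 (SE 0.15).

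PHLDA2 encodes a pleckstrin-homology protein that restrains placental growth in the mouse. It was at 11.02, 10.66 and 10.50 in conjunctival clones, against 10.34, 10.62 and 10.36 in corneal clones. Conjunctiva 1 was the highest and conjunctiva 3 lay below cornea 2, so the groups overlapped. The difference was 0.29 (SE 0.16), and 0.14 without conjunctiva 1.

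IGF2, the paternally expressed insulin-like growth factor, was level between the tissues. Its brightest probe set was at 6.89, 7.16 and 7.31 in conjunctival clones, against 7.00, 7.08 and 7.21 in corneal clones. The groups overlapped throughout and the difference was 0.02 (SE 0.14), with values of 0.23 within station 1 and -0.25 within station 2. The brightest probe set is of the x_at kind, whose probes can also match other transcripts.

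The array holds 13 IGF2 probe sets, with means from 3.53 to 7.11. Of these, 11 were lower and 2 higher in conjunctiva by the mean, with differences from -0.34 to 0.08. None of the 13 was without overlap between the tissues, and 7 had a mean above all array medians. These probe sets read 1 gene in the same 6 RNA samples and are not separate evidence.

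IGF2R encodes the receptor that carries IGF2 to the lysosome for breakdown, and it is maternally expressed in the mouse. It was at 4.91, 4.89 and 5.51 in conjunctival clones, against 5.49, 5.31 and 5.53 in corneal clones. Conjunctiva 1 and 2 lay below all corneal clones, and conjunctiva 3 lay among them. The difference of -0.34 (SE 0.19) was -0.54 without conjunctiva 3, and it was -0.29 and -0.51 within stations 1 and 2.

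PLAGL1, a paternally expressed zinc-finger transcription factor that can halt the cell cycle, varied within both tissues and not between them. It was at 5.76, 4.85 and 4.98 in conjunctival clones, against 5.50, 5.51 and 4.55 in corneal clones. Conjunctiva 1, cornea 1 and cornea 2 were the high clones, and the range was 1.21, as wide or wider in 10.5% of named genes. The tissue means differed by 0.01 (SE 0.34), with -0.58 within station 1 and 0.73 within station 2. The other 2 PLAGL1 probe sets were below the array median in every clone and differed by -0.09 and -0.00015.

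The nucleosome assembly genes NAP1L4 and NAP1L5, which encode histone chaperones, differed little. NAP1L4 was at 8.55, 8.23 and 8.32 in conjunctival clones, against 8.49, 8.12 and 8.39 in corneal clones, a difference of 0.04 (SE 0.14) with overlap. It differed by -0.21 within station 1 and 0.29 within station 2. NAP1L5 was below the array median in all 6 clones, at 3.45, 3.66 and 3.65 in conjunctiva against 3.79, 3.67 and 3.66 in cornea. Its groups were parted by a gap of 0.0061, which closed when each array was centred on its median, and the difference was -0.12 (SE 0.11).

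**Figure D3:**
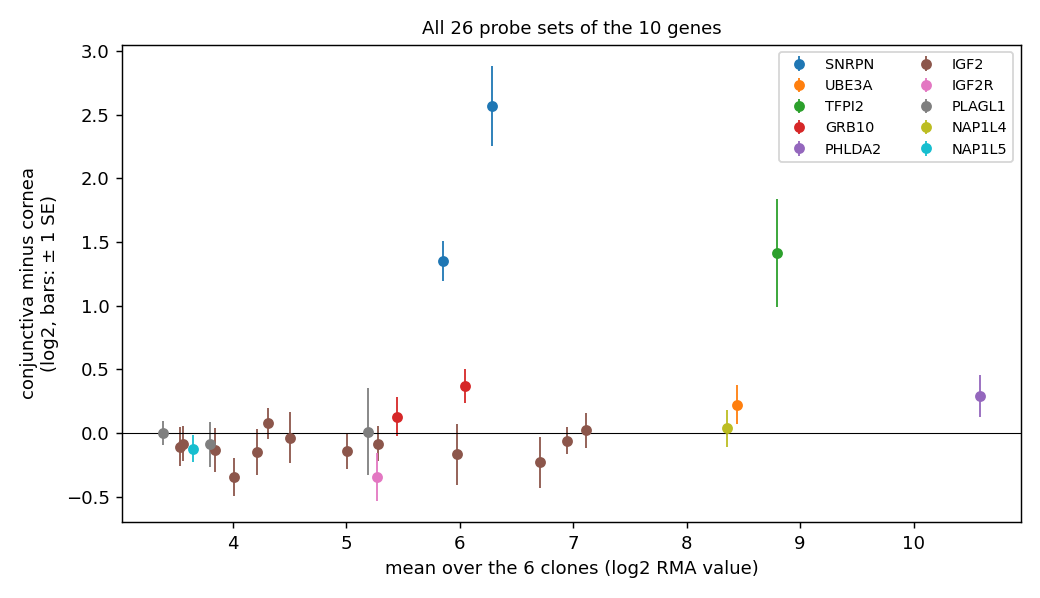
Difference between the tissues (conjunctiva minus cornea, log2, ± 1 SE) against the mean over the 6 clones for all 26 probe sets of the 10 genes, 1 point per probe set. The SNRPN probe sets lie at 2.57 and 1.35 and TFPI2 at 1.42, while the 13 IGF2 points stay between -0.34 and 0.08 over their whole span of levels.

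By their means, 8 of the 10 genes were higher and 2 lower in conjunctiva, where 53.5% of all named genes were higher. The median difference was 0.13, against 0.01 over all named genes. Without overlap were 3 genes that were higher (SNRPN, TFPI2 and GRB10), where 3.55% of named genes were, and 1 that was lower (NAP1L5), where 3.16% were. Together these are 4 genes beside 6.71% of named genes in either direction. Nothing is read from these shares, because the genes were picked with this contrast in view. Limma called 0 of 23999 probe sets (0%) at an adjusted p under 0.05, and 648 had an unadjusted p under 0.05. With the clone number as a block the unadjusted count was 1204.

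Other genes known to be imprinted in mammals showed no common direction. Of 70 listed, 30 had a probe set of their own, and 15 were higher and 15 lower in conjunctiva, with a median difference of 0.0017 against 0.01 for all named genes. None passed limma's threshold (0 of 30 at adjusted p 0.05, with a smallest adjusted p of 0.9999), and 1 had an unadjusted p under 0.05, which is 3.33% beside 3.12% of all named genes. With the clone number as a block the count was 2 of 30, beside 405 of 6765 named genes. The 2 were other genes: INPP5F and IMPACT came under that threshold (limma, unadjusted p = 0.0065 and 0.032) and PON2 no longer did (0.077). By their mean over the 6 clones, 16 of the 30 lay below all array medians, although single clones of some of these, such as PEG10 and INS, lay above.

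PON2, an intracellular lactonase gene of the PEG10 and SGCE neighbourhood in humans, was the gene with an unadjusted p under 0.05 without the block. It was at 7.20, 7.40 and 6.81 in conjunctival clones, against 6.33, 6.02 and 7.03 in corneal clones. Cornea 3 lay above conjunctiva 3, and the difference was 0.68 (SE 0.28). INPP5F, an inositol phosphatase gene with an imprinted transcript, was at 7.61, 7.87 and 6.82 in conjunctiva and at 7.10, 7.43 and 5.81 in cornea. Its lowest clone in each tissue was number 3 and each conjunctival clone was above the corneal clone of its number. The difference was 0.65 (SE 0.46), and the other INPP5F probe set differed by 0.75 (SE 0.49).

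IMPACT, which encodes an inhibitor of the kinase GCN2, was at 6.54, 6.46 and 5.95 in conjunctival and at 6.87, 6.64 and 6.44 in corneal clones. The groups overlapped, although each conjunctival clone was below the corneal clone of its number on the brighter probe set, and both probe sets were lower in conjunctiva by the mean, at -0.34 (SE 0.19) and -0.33 (SE 0.27). INS, the insulin gene next to IGF2, differed by -0.24 (SE 0.15) at levels around the array median. GPR1, a chemerin receptor gene, was the 1 gene without overlap (3.33% of the list, beside 6.71% of all named genes). It was higher in conjunctiva by 0.21 (SE 0.10) and below the array median in all clones.

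PEG10, a paternally expressed gene derived from a retrotransposon, stood out in a single clone. It was at 3.77, 3.72 and 3.59 in conjunctival clones and at 3.82 and 3.72 in cornea 1 and 2, but at 6.87 in cornea 3. The 2 other PEG10 probe sets did not show this, with cornea 3 at 3.38 and 3.29 and the other clones between 3.06 and 3.44. A range of 1 unit or more over the clones was found for 6 of these 30 genes (20%), for 3 of the 10 described above and for 16.5% of all named genes.

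**Figure D4:**
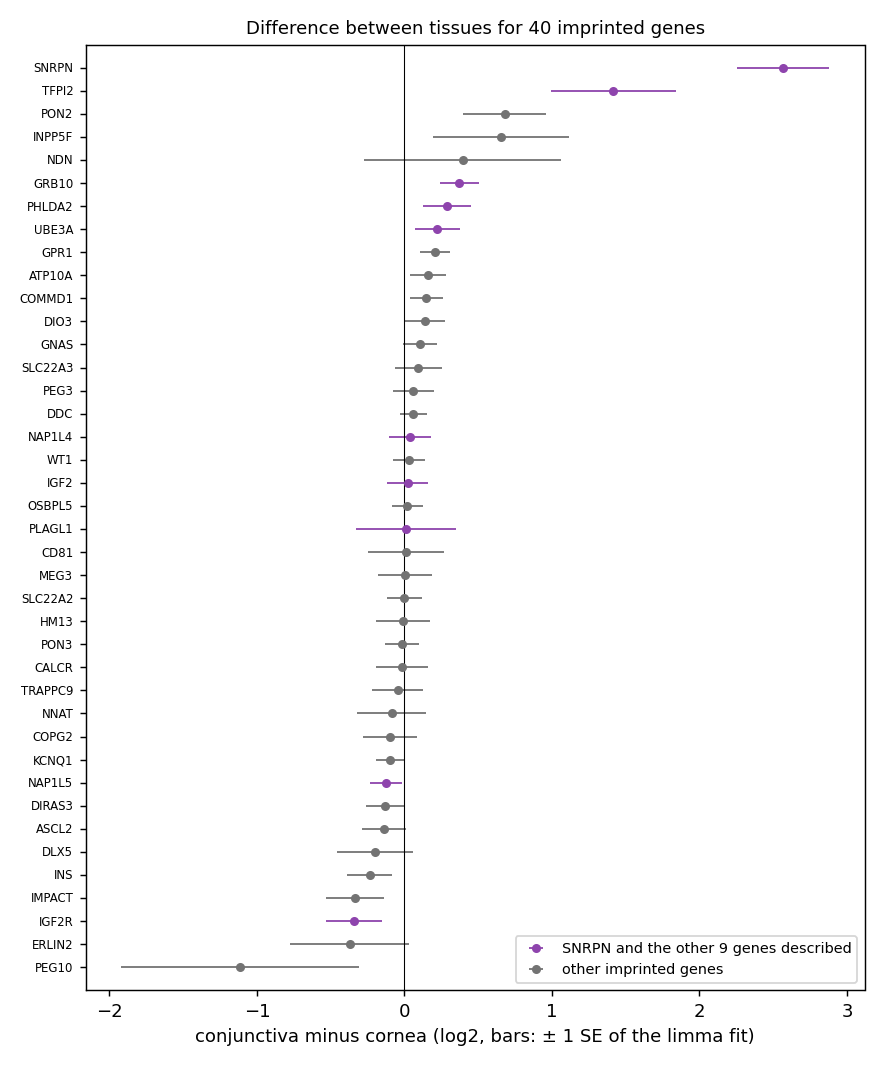
Difference between the tissues (conjunctiva minus cornea, log2) with ± 1 SE for 40 imprinted genes, 1 representative probe set each, the 10 genes described above in purple and 30 others in grey. SNRPN at 2.57 and TFPI2 at 1.42 lie furthest to the right, PEG10 at -1.11 is furthest to the left with the widest bar, and the other genes lie between -0.37 and 0.68.

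Among the other splicing genes measured, 0 were without overlap between the tissues, beside 6.71% of all named genes. Of 44 listed Sm, U snRNP and assembly genes 30 were measured. In conjunctiva 23 were higher and 7 lower (76.7% higher, beside 53.5% of all named genes). The median difference was 0.13, which was -0.0023 without cornea 2. None passed limma's threshold and 0 had an unadjusted p under 0.05, beside 3.12% of all named genes. As a mean over the list, the conjunctival clones lay at 0.11, -0.11 and 0.15 from the mean of the 6, and the corneal clones at -0.03, -0.31 and 0.20. SNRPB, which encodes the SmB protein most closely related to SmN, was at 10.17, 9.67 and 10.22 in conjunctiva, against 10.14, 9.62 and 10.28 in cornea. Its tissue means differed by 0.0040 (SE 0.22), and the number 2 clone was its lowest in each tissue.

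The named splicing genes differed by fractions of a unit. PRPF3, a protein of the U4/U6 particle, differed by 0.39 (SE 0.18), SNRNP40 by 0.26 (SE 0.16), although 1 of the 3 others for that gene ran the other way, and SF3A1 by 0.22 (SE 0.14). SNRNP48 differed by -0.23 (SE 0.19) and the GTPase gene EFTUD2 by -0.19 (SE 0.20). GEMIN5, part of the complex that assembles snRNPs, differed by -0.10 (SE 0.11), and both of its other probe sets had the opposite sign.

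Cell cycle genes varied over the clones in a way that touches the splicing list. Of 31 measured genes 28 were higher and 3 lower in conjunctiva (90.3% higher, beside 53.5% of all named genes), and the median difference was 0.32. None passed limma's threshold, and 2 had an unadjusted p under 0.05, which is 6.45% beside 3.12% of all named genes. The list means were 0.28, -0.02 and 0.25 in conjunctival clones and 0.11, -0.95 and 0.34 in corneal clones, so cornea 2 was the lowest for both lists. SNRPN, by contrast, was lowest in cornea 1. What part proliferation has in these values was not tested.

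**Figure D5:**
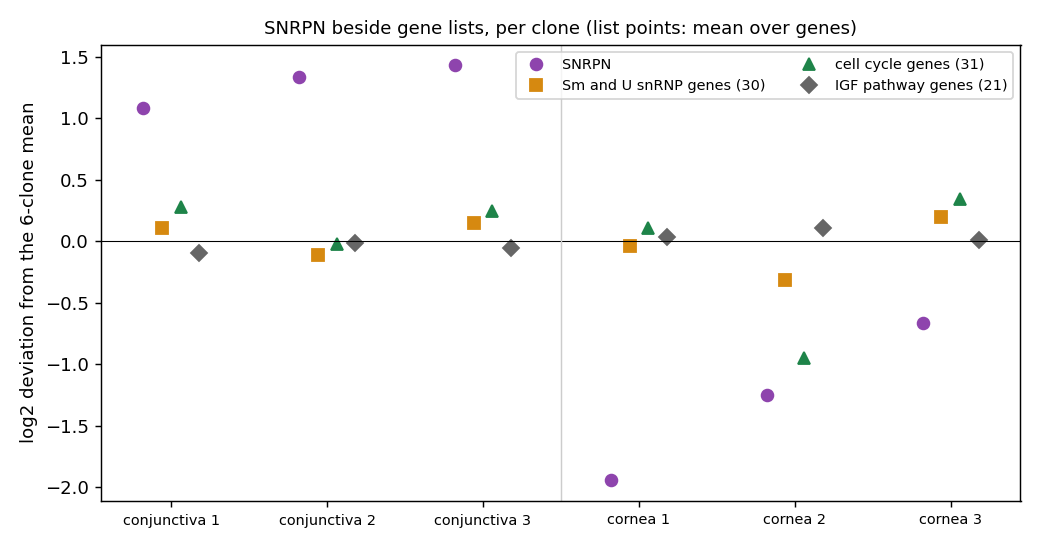
Deviation of each clone from the mean of the 6 clones (log2) for SNRPN and, as means over genes, for the Sm and U snRNP, cell cycle and IGF pathway lists, conjunctival clones left and corneal clones right. SNRPN parts the tissues by more than 1 unit in all clones, while the splicing list stays between -0.31 and 0.20 and the cell cycle list is low in cornea 2, at -0.95.

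IGF pathway genes other than IGF2, IGF2R and GRB10 were mostly slightly lower in conjunctiva. Of 39 listed genes 21 were measured, and 6 were higher and 15 lower, with a median difference of -0.07. None passed limma's threshold, and 1 had an unadjusted p under 0.05, which is 4.76% beside 3.12% of all named genes. That gene was SHC1, an adaptor of receptor tyrosine kinases, at 6.69, 6.44 and 5.97 in conjunctival clones, against 6.89, 7.13 and 6.79 in corneal clones. The groups did not overlap and the difference was -0.57 (SE 0.20).

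The binding protein gene IGFBP6, named after its values were seen, differed as much but with overlap, at 9.33, 8.54 and 9.32 in conjunctiva and 10.50, 9.89 and 8.54 in cornea, by -0.58 (SE 0.50). IGF1 differed by -0.22 (SE 0.13), with all 3 of its probe sets of the same sign, and GRB2 by -0.23 (SE 0.14), with both others of opposite sign. The binding protein genes IGFBP2 and IGFBP5 differed by 0.20 (SE 0.10) and 0.20 (SE 0.21), and the transcription factor gene FOXO1 by 0.02 (SE 0.16). IGFBP2 and GRB2 were without overlap between the tissues, as was SHC1. These 3 genes made up 14.3% of the list, beside 6.71% of all named genes.

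Family relatives of the 10 genes were measured for 10 of 20 symbols, 8 of them higher and 2 lower in conjunctiva, with 0 past limma's threshold. At an unadjusted p under 0.05 there were 0, beside 3.12% of all named genes. With the clone number as a block there was 1 of 10, beside 405 of 6765 named genes. TFPI, the coagulation inhibitor related to TFPI2, was at 5.57, 4.67 and 6.31 in conjunctival clones, against 4.58, 4.81 and 4.99 in corneal clones. Conjunctiva 3 was the highest clone for both TFPI and TFPI2, and the TFPI difference was 0.72 (SE 0.39) with overlap. UBE2L3, the ubiquitin-conjugating enzyme that works with E6-AP, differed by 0.29 (SE 0.16), and HERC1, a ligase of the wider HECT family, by -0.03 (SE 0.20). The histone chaperone gene SET differed by 0.17 (SE 0.13) and NAP1L3 by -0.05 (SE 0.11).

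Gene order in the pig assembly Sscrofa11.1 gave the measured neighbours of 9 of the genes, taken within 10 annotated genes on either side; no build is tied to the probe sets, so positions are not given. SNRPN lies on an unplaced sequence there and was left out. TFPI2 had 8 measured neighbours, with differences from -0.44 to 0.64. None was without overlap, where 6.71% of all named genes were. Among these neighbours GNG11, a G protein subunit gene, was at 6.97, 8.14 and 8.85 in conjunctiva and at 8.04, 7.28 and 6.71 in cornea. GNG11 shared the high value of conjunctiva 3 and the low value of cornea 3 with TFPI2, but its groups overlapped and the difference was 0.64 (SE 0.53).

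Around UBE3A, 5 neighbours were measured, NDN and ATP10A among them. All had a higher mean in conjunctiva, by 0.16 to 0.46, as had 53.5% of all named genes. KLF13, a transcription factor gene 10 places away, was the 1 of these without overlap, as were 6.71% of all named genes. It was at 7.82 ± 0.22 in conjunctiva and 7.36 ± 0.03 in cornea (SD, n = 3 each). PHLDA2 and NAP1L4, which are next to each other, shared the neighbours CD81, KCNQ1 and OSBPL5, which differed by 0.0097, -0.10 and 0.02. The 6 measured neighbours of IGF2 lay between -0.24 and 0.0097. IGF2R had 12 measured neighbours between -0.11 and 0.28, 1 of them without overlap, PLAGL1 had 7 between 0.01 and 0.66, and NAP1L5 had 3 between -0.19 and 0.19. DDC, beside GRB10, was low in all clones and differed by 0.06 (SE 0.09).

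The genes whose pattern over the 6 arrays was most like that of SNRPN were found among 1118 named genes with a range of at least 1 unit. TFAP2B, an AP-2 transcription factor gene, came first at r = 0.983, and was at 5.13, 5.48 and 5.30 in conjunctival clones, against 4.11, 4.21 and 4.62 in corneal clones. GLIPR2, the folate receptor gene FOLR1, LRP8, TACC1 and RSF1 followed, with r from 0.929 to 0.879. With 6 arrays and this many genes, such likeness is a description only. For UBE3A the closest were BCL11A, SUPT3H, BAD, PSPH, TACC1 and CYSTM1 (r from 0.930 to 0.880 over 1119 genes), each of them at its lowest in cornea 1, as UBE3A was.

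TFPI2 was most like the chemokine gene CXCL14 (r = 0.891), followed by GK, GNPDA1, FAM162B, DEPDC7 and VIM (r from 0.870 to 0.801). PLAGL1 was most like LOC404703 (r = 0.992), the intestinal galectin gene LGALS4 (0.965), PRKRA, MDFIC, B3GNT5 and the arginase gene ARG1 (0.949). LGALS4 was at 12.16, 9.10 and 9.99 in conjunctival clones, against 10.55, 11.55 and 7.72 in corneal clones. ARG1 was at 8.92, 4.97 and 3.70 in conjunctiva, against 7.59, 8.64 and 3.28 in cornea. PLAGL1 and ARG1 shared their high clones, conjunctiva 1, cornea 1 and cornea 2, in both tissues.

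Markers of other cells were read for the same clones, since SNRPN is prominent in neurons and PLAGL1 and IGF2 in stromal cells. Of 15 neuronal and neuroendocrine markers 11 were measured, 7 of them with a mean below all array medians, and 1 was higher and 10 lower in conjunctiva (median -0.10). By the median over these genes, the conjunctival clones lay at -0.12, -0.06 and 0.0096 from the 6-clone mean, and the corneal clones at 0.05, 0.0062 and 0.06. MAP2, a microtubule protein gene, varied most, at 6.39, 6.12 and 5.87 in conjunctiva and 8.11, 7.69 and 3.87 in cornea. CHGA ran from 4.75 to 5.15 in conjunctiva and from 4.97 to 5.33 in cornea, and UCHL1 from 4.34 to 5.12 and from 4.92 to 5.79 in the same order. SNAP25, SYT1, CHGB and STMN2, synaptic, secretory granule and neurite genes, were among the 7 low ones. Of 24 fibroblast and keratocyte markers 19 were measured, 8 higher and 11 lower in conjunctiva (median -0.06), with list medians of -0.07, -0.01 and -0.0054 in conjunctival clones and 0.15, -0.06 and 0.05 in corneal clones. SPARC and S100A4 were far lower in cornea 3, at 5.31 and 7.44, than in the other clones, where they ran from 9.45 to 11.02 and from 9.51 to 10.84. The other SPARC probe set had a tissue difference of the opposite sign. By their means 8 of the 19 lay below all array medians. LUM and COL3A1 were below the array median in every clone, while SPARC, THY1, VIM and TAGLN were above it in every clone. What part RNA of the mouse feeder layer has in these values was not tested. Melanocyte, leukocyte and endothelial markers were measured for 6, 12 and 9 genes, with median differences of -0.08, -0.10 and -0.09, and none of these lists had a gene past limma's threshold. By their means 2, 11 and 7 of them lay below all array medians. Some were not low: GPNMB ran from 4.61 to 8.48 over the clones and AIF1 from 6.33 to 8.45. PECAM1 ran from 7.75 to 8.22 in conjunctiva and from 7.11 to 7.76 in cornea, a difference of 0.56 (SE 0.20). Of the 9 endothelial genes 2 were higher and 7 lower in conjunctiva.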

How the data were processed

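The deposited table holds log2 values made by the authors with RMA, per the submitters' processing notes; its version was not given in the sources used here. Of the run records, the fluidics station and module were used and the rest was not. After leaving out 124 control probe sets, 23999 remained, of which 10069 had 1 symbol in the array's annotation, 198 had several and 13732 had none there. Conjunctiva was compared with cornea by limma 3.58.1 in R 4.3.3, with two-sided p-values adjusted by Benjamini-Hochberg across all probe sets, without a filter on low values, and standard errors are those of this fit. The fit was checked on simulated data. The 10 genes, the gene lists and the tests were chosen with earlier results of these data known.

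Named were the 10 genes, up to 3 genes per direction with the smallest p from each list (for marker lists only some are given in the text, and for the cell cycle list none), the measured genes of the SNRPN region, SNRPB and the 6 genes most like SNRPN, UBE3A, TFPI2 and PLAGL1. Neighbouring genes, and the marker genes given for their level, were chosen after their values were seen. Each clone's deviation from the mean of its tissue was correlated with that of the clone of the same number in the other tissue (r = 0.354, 0.169 and 0.349 over probe sets for numbers 1, 2 and 3). All being above 0.1, clone numbers were fitted as a block in an alternative. The labels name 2 pigs and do not state what a number stands for, and clones of different numbers were not correlated. The check therefore cannot tell whether same-numbered clones are pairs. The labels do not state separate cultures, so p-values cover only the spread between these samples, and the number of arrays limits precision. RMA gives all arrays one distribution, which hides any shift in the RNA content of a cell. Alternatives were array median centring, the clone number or station as a block, single stations, leaving out each clone, limma's trend and robust options, a filter on dim probe sets, 1 probe set per gene and means over a gene's probe sets.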

Additional observations from a re-analysis of the deposited data

How the results depend on the processing

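The count of probe sets past limma's adjusted p 0.05 was 0 in each fit without 1 clone (0 to 0), with the station or the clone number as a block, and within stations, and became 2 with trend and robust options and 1 with 1 probe set per gene. SNRPN kept its direction in all 12 alternatives, which its lack of overlap between the tissues fixed in advance, so only the sizes are described. The SNRPN difference was 2.24 to 2.88 without 1 clone, 3.33 within station 1, 2.04 within station 2 and 1.96 as a mean over its probe sets. With the clone number as a replicate block, the differences are the same by construction (SNRPN 2.57). IGF2, PLAGL1 and NAP1L4, all within 0.04 of 0, turned sign in 5, 4 and 3 of 12 alternatives, and none of the other genes did. Genes without overlap among the 10 numbered 4, 3 with array median centring (which ended the call of NAP1L5), and 4 to 6 without 1 clone; over all probe sets they were 1746, and 3602 to 4660 without 1 clone, where fewer clones overlap less, and 768 of the 12000 brighter ones. The median of other imprinted genes, 0.0017, was 0.15 within station 1 and -0.14 within station 2, and -0.05 to 0.09 without 1 clone. The IGF pathway median was 0.064 within station 1 and -0.12 within station 2, and ran from -0.12 to -0.027 without 1 clone. The splicing list's median ran from -0.0023 to 0.25 without 1 clone. The causes were not tested. NAP1L5 and 16 of the 30 other imprinted genes had a mean below all array medians, where the signal limits what can be seen.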
